A study of Mus musculus with 8 samples.

Results

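Transcripts of 10 enzymes of glycolysis were followed in pancreatic tissue of Bach2KO and Bach2WT mice. The enzymes were chosen by gene symbol, as 1 gene for each of 10 catalytic activities from hexokinase to lactate dehydrogenase, and all 10 were found among the 21434 genes of the deposited table. Pancreatic RNA came from 8 mice that had received no treatment and were 18 weeks old. Bach2KO mice were homozygous for the C57BL/6N-Bach2tm1b(EUCOMM)Wtsi/leg allele, a Cre-excised knockout carried in all cells, and Bach2WT mice were wild type animals of the same strain. Each genotype held 4 mice, with females as mice 1 and 2 and males as mice 3 and 4. The study kept 2 colonies at different sites, and the labels do not say which colony a library came from. mRNA was sequenced from whole tissue, so a change in the cells that make up the pancreas and a change of RNA per cell cannot be told apart.

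Glycolysis splits glucose into pyruvate in the cytosol and yields ATP and NADH, and lactate dehydrogenase returns NADH to NAD by making lactate. Most of the pancreas consists of acinar cells, which secrete digestive enzymes and draw mainly on mitochondrial ATP, while the beta cells of the islets use glucose breakdown to sense blood glucose. Several steps can be carried out by any of several isozymes, which are made from separate genes and differ between tissues.

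The libraries held 72299745 to 172029360 counts on genes, and 33 digestive enzyme and granule genes took 82.2 to 85.1% of them. The knocked-out gene could not check the genotype labels, as Bach2 counts were 3 to 16 under the label Bach2KO and 4 to 31 under the label Bach2WT. On the first principal component of all genes, which held 23.3% of the variance, Bach2KO 3 was far from the rest, at 101.8 where the remaining 7 libraries ran from −34.8 to 7.22. Summed over the 10 acinar markers listed for this purpose, the level was 437100 to 489500 CPM (counts relative to the library total, scaled with the TMM factors of edgeR) in the Bach2KO libraries and 471000 to 633600 CPM in the Bach2WT libraries, so the defining markers of the labelled tissue were present. The sum of 10 islet markers varied much more, from 229 to 2027 CPM and from 186 to 2322 CPM, and was highest in Bach2KO 3 and Bach2WT 4.

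Before the levels are read, the sequences matter, because several glycolytic genes have left near-identical processed copies in the mouse genome. For each enzyme, the coding sequence of its principal transcript in GENCODE M21 was cut into all windows of 150 bases, the length of a read, and each window was searched in the transcripts of all other genes. For 5 enzymes (Hk1, Pfkl, Aldoa, Tpi1 and Ldha) no coding window occurred in another gene. All coding windows of Gapdh, Pgk1 and Pgam1 occurred elsewhere, as did 59.3% of those of Eno1 and 4.57% of those of Pkm. Gapdh, the dehydrogenase that oxidises glyceraldehyde phosphate, shared windows with 45 pseudogenes. Its coding bases 403 to 492 are shown because they hold the codon of the catalytic cysteine, residue 150 counted from the first methionine, which is in capitals (GENCODE M21, chromosome 6). Beneath them stands the same stretch of the processed pseudogene Gm5559 on chromosome 5, the copy with the most counts in the table.
Gapdh: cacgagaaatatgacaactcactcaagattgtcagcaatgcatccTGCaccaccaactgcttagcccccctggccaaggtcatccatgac
Gm5559: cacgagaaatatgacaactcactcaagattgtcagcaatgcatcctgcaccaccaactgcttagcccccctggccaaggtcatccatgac
The ungapped comparison found 0 mismatches in these 90 bases, and 29 of the 45 pseudogenes held the stretch letter for letter. A pair of further copies with many counts, Gm13394 on chromosome 2 and Gm12033 on chromosome 11, had 0 mismatches as well. Pgk1, the kinase that yields the first ATP of the pathway, is X-linked, and its coding bases 301 to 390 are shown beside its copy Pgk1-rs7 on chromosome 12.
Pgk1: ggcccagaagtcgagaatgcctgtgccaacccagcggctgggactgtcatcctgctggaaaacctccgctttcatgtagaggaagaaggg
Pgk1-rs7: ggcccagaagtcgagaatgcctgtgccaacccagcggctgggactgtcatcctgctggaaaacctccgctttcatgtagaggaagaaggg
This pair also had 0 mismatches. A read of 150 bases that lies wholly in shared sequence cannot be assigned to 1 gene by its own bases. The reads were paired, and the search did not ask whether a mate could place a pair. How reads with several matches were counted is not given in the sources used here. The levels of Gapdh, Pgk1, Pgam1 and Eno1 are therefore uncertain.

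**Figure D1:**
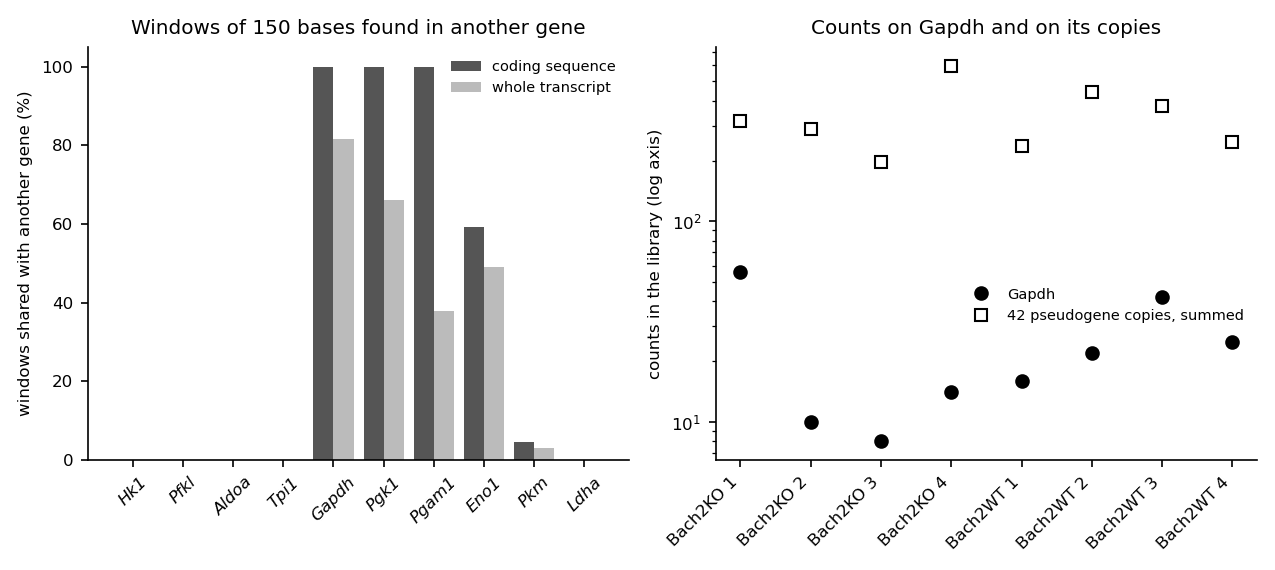
Left, share of 150-base windows (%) of the coding sequence (dark bars) and of the whole transcript (light bars) that occur in a transcript of another gene, for the 10 enzymes. Right, counts per library on a log axis for Gapdh (filled circles, 8 to 56 counts) and for its 42 pseudogene copies in the table, summed (open squares, 197 to 597 counts), where the copies exceed Gapdh in all 8 libraries.

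Per kilobase of gene, the 10 enzymes spanned more than 2 orders of magnitude. FPKM values were deposited by the authors on 1 scale common to all libraries, and means are over 8 libraries. Aldoa, the main aldolase of most tissues, led with a level of 21.1 ± 3.39 FPKM (SD, n = 8), and it ranked 287 of 21434 genes. Tpi1 (triose phosphate isomerase) followed with 7.86 ± 1.65 FPKM, Pgk1 with 6.85 ± 1.43 FPKM, Ldha (lactate dehydrogenase A) with 6.15 ± 1.51 FPKM and Pkm (pyruvate kinase) with 6.02 ± 1.04 FPKM. The ranges of each neighbouring pair among these 4 overlapped, so the order of neighbours is not fixed by these data. In FPKM, Tpi1 was above Pgk1 in 6 libraries, Pgk1 above Ldha in 6 and Ldha above Pkm in 5. Tpi1 was above Pkm in every library. Eno1 (enolase) had 3.28 ± 0.599 FPKM and Pgam1 (phosphoglycerate mutase) 2.76 ± 0.640 FPKM, and these overlapped as well, but all 8 libraries had more Pkm than Eno1. Of the 10 chosen genes, those of the early, committing steps were much lower. Pfkl, the phosphofructokinase named after liver, had 0.517 ± 0.122 FPKM and Hk1, a hexokinase of high glucose affinity, 0.198 ± 0.0412 FPKM. Other isozymes of these steps are left out of this order. Gapdh came last with 0.0486 ± 0.0265 FPKM, rank 11900 of the table. From Pgam1 over Pfkl and Hk1 to Gapdh, the ranges of neighbours did not overlap. The order in FPKM depends on the deposited gene lengths, such as 2753 bases for Tpi1 and 5001 bases for Pkm. In counts summed over the 8 libraries, Pkm had 28813 and Tpi1 20535, and Eno1 had 16968 and Pgk1 15376.

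Gapdh, one of the genes commonly used as a reference for other transcripts, thus had 56, 10, 8 and 14 counts in Bach2KO 1 to 4 and 16, 22, 42 and 25 counts in Bach2WT 1 to 4. Its 42 pseudogene copies in the table together held 197 to 597 counts per library, which leaves the sum of Gapdh and copies at 2.30 to 3.93 CPM. This sum was below the 15.2 to 27.9 CPM of Tpi1 in every library. It lacks any reads that were left uncounted for having several matches, so it sets no upper limit on Gapdh. Pgk1, whose coding windows were all shared too but with 1 copy in the table, had 950 to 3596 counts, with 3 to 26 on Pgk1-rs7. Over the whole transcript, the share of windows found elsewhere was 81.6% for Gapdh, 66.1% for Pgk1 and 37.9% for Pgam1. The part of shared sequence in the low count of Gapdh was not tested.

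The comparison of the genotypes asked whether the level of each enzyme differed between Bach2KO and Bach2WT pancreas. All 10 enzymes passed the filter on low counts and were tested with 12820 genes in edgeR's quasi-likelihood test. After Benjamini-Hochberg adjustment, 0 of the 10 enzymes had a p-value under 0.05, as against 1 of all genes tested (0.00780%). At an unadjusted p-value under 0.05 the count was also 0 in either direction, where 3.90% of all genes were higher and 3.56% were lower in Bach2KO mice. The count was 2 (Aldoa and Tpi1) without Bach2WT 1 and 1 (Tpi1) without Bach2KO 3. With DESeq2, 0 enzymes had an adjusted p-value under 0.05, and 1, Tpi1, had an unadjusted one. In none of the 10 enzymes were the 4 Bach2KO values clear of the 4 Bach2WT values, which was the case on the higher side for 2.57% and on the lower side for 1.92% of all genes. Fitted values were lower in Bach2KO mice for 8 of the 10 enzymes, against 45.3% of all genes, and their median log2 fold change was −0.17 beside 0.048 for all genes. With TMM factors, the markers of acinar cells, which make up most of the tissue, had lower fitted values in Bach2KO mice as well. This held for 9 of 10 genes, with a median log2 fold change of −0.28. Of these markers, Cpa1, Cela2a and Prss2, which encode digestive proteases, had an unadjusted p-value under 0.05 in edgeR, the genotypes did not overlap for Cpa1 and Cela2a, and Cpa1 had an adjusted p of 0.513 in edgeR and 0.0457 in DESeq2. As a share of library totals, without TMM factors, the 33 digestive enzyme and granule genes took 82.22 to 84.01% in the Bach2KO and 83.85 to 85.11% in the Bach2WT libraries. The part of the acinar markers in the levels of the enzymes was not tested.

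The direction for the enzymes depends on the scaling. With library totals in place of TMM factors, which was added after seeing the data, the median of all genes moved from 0.048 to 0.35, the median of the enzymes to 0.14, and only 2 of 10 enzymes (Tpi1 and Gapdh) were lower in Bach2KO mice. Relative to the median of all genes, the enzymes' median was −0.22 with TMM factors and −0.20 with library totals. Without TMM factors, the enzymes together took 158 to 213 CPM in the Bach2KO and 163 to 195 CPM in the Bach2WT libraries. The TMM factors were 1.047 to 1.176 in the Bach2KO libraries, 1.103 in Bach2WT 1 and 0.8263 to 0.8585 in Bach2WT 2 to 4. A smaller factor raises CPM, so the order of single libraries in CPM, here and below, depends on the scaling as well.

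**Figure D2:**
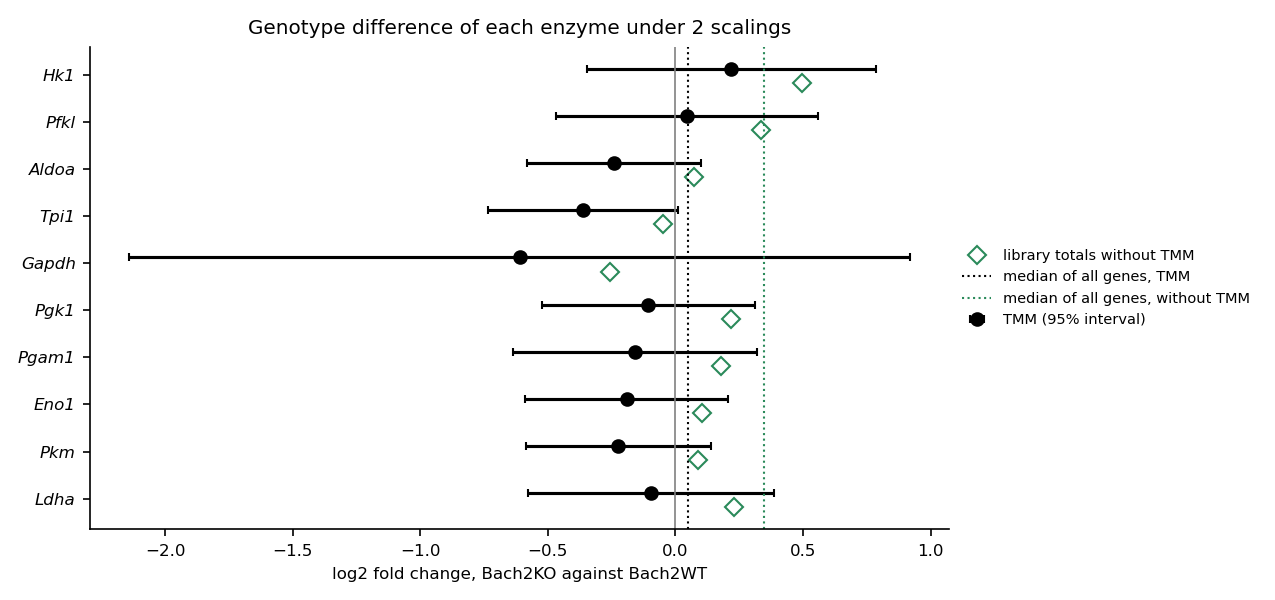
Log2 fold change of each enzyme, Bach2KO against Bach2WT (n = 4 each), with TMM factors (filled circles, bars are 95% intervals) and with library totals (open diamonds). Dotted lines mark the median of all genes under each scaling, 0.048 and 0.35, and every interval spans 0.

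Sugar phosphorylation opens the pathway. Hk1 (ENSMUSG00000037012; chromosome 10 of GRCm39, 62104634 to 62215687) had 1.78, 2.22, 1.72 and 1.73 CPM in Bach2KO 1 to 4 and 1.87, 2.07, 1.37 and 1.07 CPM in Bach2WT 1 to 4. The female Bach2WT mice lay within the Bach2KO range and the male Bach2WT mice below it. On the log2 scale Bach2KO differed from Bach2WT by 0.22 (standard error, SE, 0.26; 95% interval −0.35 to 0.78; edgeR adjusted p = 0.923). Pfkl (ENSMUSG00000020277; chromosome 10, 77822781 to 77845917), which adds the next phosphate and is the main point of control, had 2.93, 3.88, 4.39 and 3.18 CPM against 3.42, 3.25, 4.86 and 2.33 CPM. Both the lowest and the highest value were from male Bach2WT mice. Its log2 fold change was 0.046 (SE 0.24, interval −0.47 to 0.56; edgeR adjusted p = 0.983).

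Aldoa and Tpi1 split fructose bisphosphate and interconvert the triose phosphates. For Aldoa (ENSMUSG00000030695; chromosome 7, 126394406 to 126399923), the levels were 47.3, 60.8, 59.3 and 62.8 CPM in Bach2KO 1 to 4 and 54.7, 76.1, 71.6 and 69.7 CPM in Bach2WT 1 to 4. Apart from Bach2WT 1, all Bach2WT libraries were above all Bach2KO libraries with TMM factors. By library totals this order was lost, with 12110 of 166529247 counts in Bach2KO 4 and 9981 of 152872514 in Bach2WT 2. For Aldoa, the difference of −0.24 on the log2 scale (SE 0.16, interval −0.58 to 0.099) did not pass the threshold (edgeR adjusted p = 0.789). A second entry named Aldoa (ENSMUSG00000114515) had 2 counts in all and was not tested. Tpi1 (ENSMUSG00000023456; chromosome 6, 124787549 to 124791259) had 15.2, 19.1, 22.5 and 20.6 CPM against 19.6, 27.9, 24.3 and 27.7 CPM. As with Aldoa, 3 of the 4 Bach2WT values exceeded every Bach2KO value with TMM factors, and Bach2WT 1 lay among the Bach2KO values. At −0.36 on the log2 scale (SE 0.17, interval −0.74 to 0.0093), Tpi1 had the smallest p-value of the 10 enzymes (unadjusted p = 0.0552, adjusted p = 0.671 in edgeR; unadjusted p = 0.0448, adjusted p = 0.545 in DESeq2). With library totals in place of TMM its log2 fold change was −0.050.

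The enzymes of the payoff steps between triose phosphate and phosphoenolpyruvate shared most of their coding windows with other genes, while Pkm shared few. Gapdh (ENSMUSG00000057666; chromosome 6, 125138678 to 125143430) had 0.346, 0.121, 0.106 and 0.0726 CPM in Bach2KO 1 to 4 and 0.178, 0.168, 0.293 and 0.360 CPM in Bach2WT 1 to 4. Bach2KO 1 was close to the highest Bach2WT library, and the other Bach2KO libraries were the lowest of all. At 8 to 56 counts, the log2 fold change of −0.61 had a SE of 0.71 and an interval of −2.14 to 0.92 (edgeR adjusted p = 0.921). Without Bach2KO 1 it was −1.32. Summed with its 42 copies, which was added after seeing the data, it was −0.17 (SE 0.21; edgeR adjusted p = 0.928).

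Pgk1 (ENSMUSG00000062070; chromosome X, 105230706 to 105247305) had 14.2, 15.1, 12.6 and 18.6 CPM against 12.9, 22.2, 15.1 and 15.0 CPM. The highest value in each genotype stood alone, in Bach2KO 4 and Bach2WT 2, and the others lay together. Its log2 fold change was −0.11 (SE 0.19, interval −0.52 to 0.31; edgeR adjusted p = 0.948). Pgam1 (ENSMUSG00000011752; chromosome 19, 41900362 to 41907099), which moves the phosphate within phosphoglycerate, had 4.71, 4.76, 5.67 and 5.97 CPM against 3.57, 7.59, 5.70 and 6.70 CPM. The Bach2WT values enclosed those of the Bach2KO libraries on both sides. Its log2 fold change was −0.16 (SE 0.22, interval −0.64 to 0.32; edgeR adjusted p = 0.933). Eno1 (ENSMUSG00000063524; chromosome 4, 150321178 to 150333336), which makes phosphoenolpyruvate, had 11.5, 18.1, 18.8 and 19.0 CPM against 18.0, 22.8, 19.1 and 16.9 CPM. Bach2KO 1 lay far below the other 7 libraries. This gave a fold change of −0.19 on the log2 scale (SE 0.18, interval −0.59 to 0.21; edgeR adjusted p = 0.883).

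Pkm and Ldha close the pathway by making pyruvate and lactate. Pkm (ENSMUSG00000032294; chromosome 9, 59563651 to 59586658) had 22.2, 29.5, 32.3 and 29.5 CPM in Bach2KO 1 to 4 and 26.0, 36.1, 36.1 and 34.3 CPM in Bach2WT 1 to 4. With TMM factors, the pattern was that of Aldoa and Tpi1, with Bach2WT 1 among the Bach2KO values and the other Bach2WT libraries above them. Its log2 fold change was −0.22 (SE 0.17, interval −0.59 to 0.14; edgeR adjusted p = 0.823). The table does not separate the splice forms of Pkm. Ldha (ENSMUSG00000063229; chromosome 7, 46490899 to 46505051) had 14.0, 21.9, 22.2 and 22.3 CPM against 14.2, 28.9, 19.2 and 23.7 CPM. Mouse 1 was low in both genotypes. Its fold change was −0.096 on the log2 scale (SE 0.22, interval −0.58 to 0.39; edgeR adjusted p = 0.961).

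**Figure D3:**
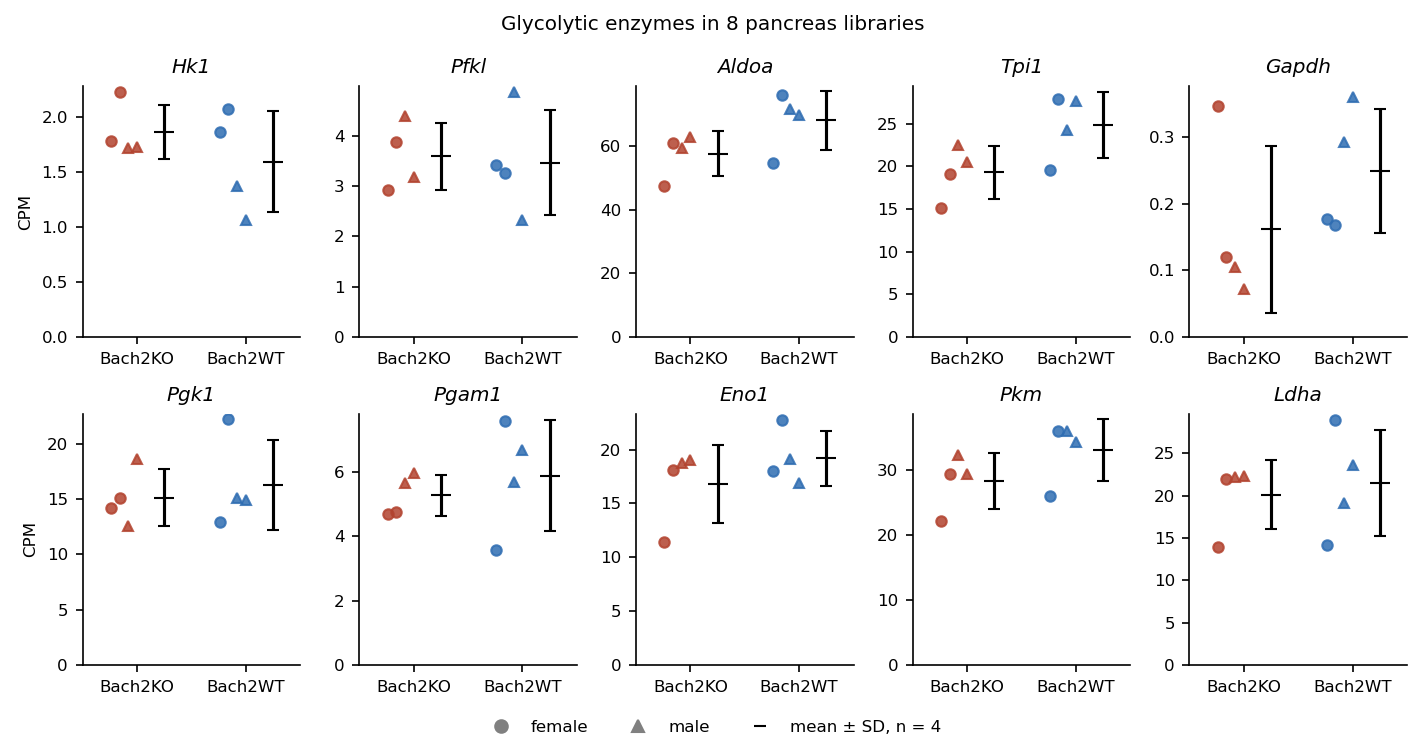
CPM (linear axis from 0) of each enzyme in the 4 Bach2KO (red) and 4 Bach2WT (blue) libraries, with females as circles, males as triangles, and the mean ± SD beside them. Values are scaled with TMM factors. The genotypes overlap in all 10 panels, and for Aldoa, Tpi1 and Pkm a single Bach2WT library lies among the Bach2KO values.

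The same few libraries held the extremes of most enzymes. Bach2KO 1 had the lowest level of the 8 libraries for 5 enzymes (Aldoa, Tpi1, Eno1, Pkm and Ldha), and Bach2WT 2 the highest for 6 (Aldoa, Tpi1, Pgk1, Pgam1, Eno1 and Ldha). Without Bach2KO 1 the enzymes' median log2 fold change was −0.09, without Bach2WT 2 it was −0.05 and without Bach2WT 1 it was −0.29. The coefficient of variation over the 8 libraries was 15.0% for Aldoa, 16.1% for Pkm and 54.7% for Gapdh, with the other 7 enzymes between them. Across the 8 libraries, which share their depth and scaling between genes, log2 CPM values of Aldoa, Tpi1 and Pkm had pairwise Pearson coefficients of 0.93 to 0.96, while Hk1, Pfkl and Gapdh had coefficients of −0.29, 0.091 and −0.03 with Aldoa. Of 384 genes with a mean log2 CPM of at least 5, Surf4 (0.947), Zfp706 (0.927), Mlec (0.926), Clptm1l (0.920) and Rpl3 (0.920) had the highest Pearson coefficients with the mean standardized level of the 10 enzymes over the 8 libraries. In edgeR these 5 genes had log2 fold changes of −0.30 to −0.08 (adjusted p = 0.743 to 0.948).

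**Figure D4:**
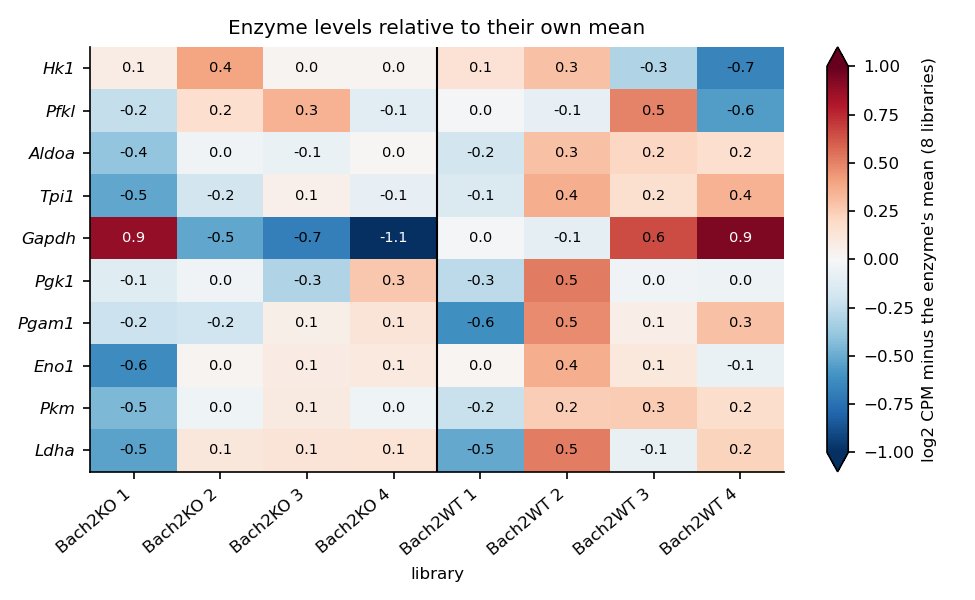
Log2 CPM of each enzyme (rows) in each library (columns) minus the enzyme's own mean over the 8 libraries, in colour and as a number rounded to 1 decimal. With TMM factors, most of the column of Bach2KO 1 is below the mean and most of the column of Bach2WT 2 above it, while the row of Gapdh goes its own way.

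Sex was compared with genotype in the model. At an adjusted p-value under 0.05, 0 of the 10 enzymes differed between females and males in edgeR, beside 4 of all genes (0.0312%), and at an unadjusted p-value under 0.05 the count was again 0, beside 5.29% of all genes. Hk1 had the smallest p-value, with 1.98 ± 0.200 CPM in females and 1.47 ± 0.316 CPM in males (SD, n = 4 each), a log2 difference of 0.45 (SE 0.24; edgeR adjusted p = 0.890). The effect of genotype was not shown to differ between the sexes for any enzyme: 0 of 10 passed an unadjusted p-value under 0.05 for the interaction, beside 6.14% of all genes, with 2 mice per cell, and 0 of all genes had an adjusted p-value under 0.05.

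Shares of a step were computed for 5 steps, as the member's part of the summed FPKM of the step's isozymes. Pfkm, the phosphofructokinase named after muscle, led its step in FPKM in all 8 libraries with 59.4% on average, and Pfkl held 27.7 to 41.0%. This order depends on the deposited gene lengths, 6675 bases for Pfkl and 3340 bases for Pfkm. In counts summed over the 8 libraries, Pfkl had 3336 and Pfkm 2957. In the other 4 steps the member led in all 8 libraries. Its share was lowest at 93.2% for Pgam1, 81.2% for Eno1, 94.0% for Pkm and 82.5% for Ldha. The other gene of the Pgam1 step, Pgam2, had only 0 to 10 counts per library and did not pass the filter on low counts.

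The shares of the genotypes overlapped in each of the 5 steps. Pfkl carried 34.8 ± 5.20% of its step in Bach2KO and 33.9 ± 5.33% in Bach2WT mice (SD, n = 4 each), and Ldha 89.7 ± 4.92% and 91.6 ± 5.38%. Differences between the genotypes were −1.87 to 0.92 percentage points, and the two-sided exact permutation p-values lay between 0.543 and 1 before and were 1 after adjustment over the 5 steps (the smallest possible with 4 against 4 is 0.0286).

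**Figure D5:**
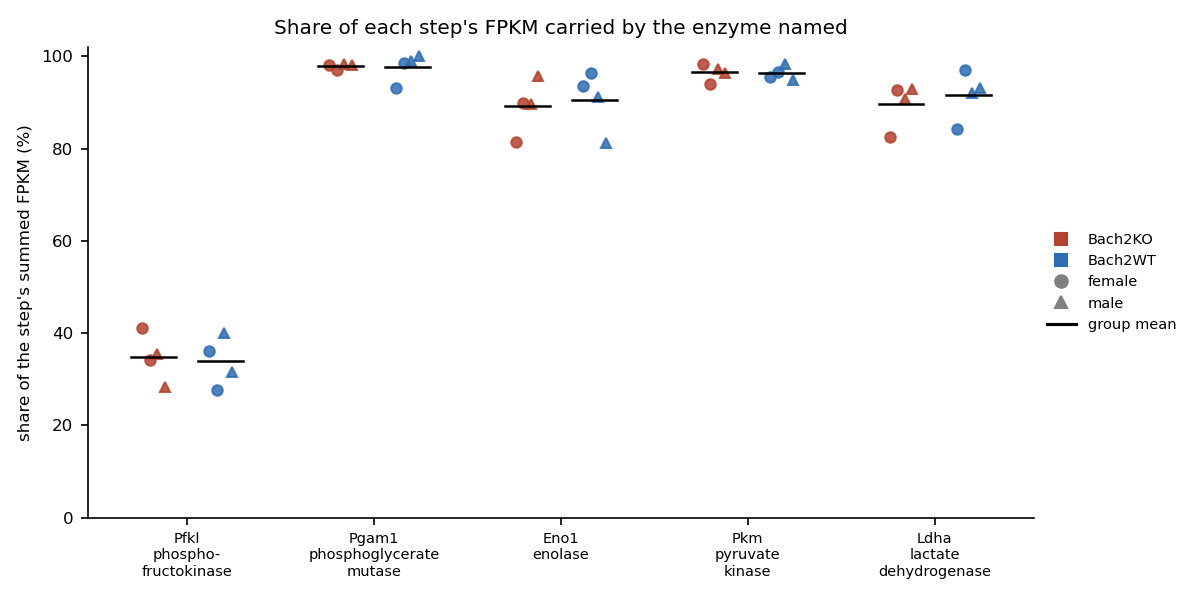
Share (%) of the summed FPKM of a step's isozymes that the named enzyme carried in each library, for 5 steps, with Bach2KO in red, Bach2WT in blue, females as circles, males as triangles and group means as lines. Pfkl carries the smaller part of its step, the other 4 enzymes carry over 80% of theirs, and the genotypes overlap in each step.

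Of the wider pathway, 68 further genes in 6 lists were in the table and 62 were tested, of which 0 had an adjusted p-value under 0.05 in edgeR or DESeq2. At an unadjusted p-value under 0.05, 5 were higher and 4 lower in Bach2KO mice in edgeR, beside 3.90% and 3.56% of all genes. With TMM factors, the genotypes did not overlap for 3 genes on the higher side and 2 on the lower side, beside 2.57% and 1.92% of all genes. The counts of lower fitted values given per list stand beside 45.3% of all genes. Among other glycolysis enzymes and isozymes, 7 of 15 tested genes had higher and 8 lower fitted values (median log2 fold change −0.012), and the unadjusted threshold was passed by Aldoc and Pfkp. Aldoc, the aldolase of brain, had 0.636, 0.556, 1.93 and 0.601 CPM in Bach2KO 1 to 4 and 0.455, 0.107, 0.327 and 0.504 CPM in Bach2WT 1 to 4. All Bach2KO libraries were above all Bach2WT libraries, with Bach2KO 3 far from the rest, and the log2 fold change was 1.42 (SE 0.55; edgeR adjusted p = 0.627). Pfkp, the platelet phosphofructokinase, differed by 0.65 on the log2 scale (SE 0.29; edgeR adjusted p = 0.663). Gpi1, which converts glucose phosphate to fructose phosphate, had 33.0 to 43.9 CPM in the Bach2KO and 40.2 to 47.3 CPM in the Bach2WT libraries.

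Of the glucose and lactate transporters, 9 of 10 were tested, with a median log2 fold change of 0.15 and 1 gene each way past the unadjusted threshold. Slc16a3, which exports lactate, had 42, 48, 24 and 37 counts in Bach2KO 1 to 4 and 3, 15, 14 and 0 in Bach2WT 1 to 4. The groups did not overlap at these low counts, and a count of 0 is given with a floor of 3 counts, which covers counting error only. On the log2 scale the difference was 2.37 (SE 0.89; edgeR adjusted p = 0.612). Bsg (basigin), the chaperone of the lactate transporters, had 67.2, 93.5, 118.3 and 121.0 CPM against 114.0, 203.5, 142.6 and 164.3 CPM. With TMM factors, Bach2WT 1 again lay within the Bach2KO values and Bach2KO 1 was the lowest library. The log2 fold change of Bsg was −0.64 (SE 0.22; edgeR adjusted p = 0.552). The glucose transporters of most cells and of beta cells, Slc2a1 and Slc2a2, had log2 fold changes of 0.15 and 0.24 (edgeR adjusted p = 0.960 and 0.969), and Slc2a2 was highest in the libraries with the highest islet marker sums, at 1.19 CPM in Bach2KO 3 and 1.40 CPM in Bach2WT 4.

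Regulators of glycolytic flux had a median log2 fold change of 0.21 over 17 tested genes, 13 of them with higher fitted values. Pdk4, a kinase that shuts pyruvate dehydrogenase, had 1512, 12, 2 and 16 counts in Bach2KO 1 to 4 and 0, 0, 0 and 16 in Bach2WT 1 to 4. A single library, Bach2KO 1, thus held nearly all of its counts. Myc, a transcription factor, had 3.83, 1.88, 4.07 and 2.05 CPM against 2.12, 1.78, 2.17 and 1.04 CPM. The groups overlapped, and the log2 fold change was 0.73 (SE 0.32; edgeR adjusted p = 0.656). Of the pyruvate dehydrogenase list, 6 of 7 genes had lower fitted values (median −0.10). Pdhx, a structural subunit of the complex, did not overlap between the genotypes with TMM factors, at 0.621 to 1.22 CPM against 1.32 to 2.23 CPM. The difference was −0.73 on the log2 scale (SE 0.30; edgeR adjusted p = 0.636). By library totals the genotypes overlapped for Pdhx, with 198 of 137668139 counts in Bach2KO 1 and 101 of 84052687 in Bach2WT 4.

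The pentose phosphate pathway branches off glucose phosphate and yields NADPH. Of its 8 genes, 5 had lower fitted values (median log2 fold change −0.28), and the first and the third enzyme of the branch passed the unadjusted threshold. G6pdx, the first enzyme, had 1.30, 2.15, 2.80 and 2.87 CPM in Bach2KO 1 to 4 and 3.31, 3.98, 4.20 and 3.20 CPM in Bach2WT 1 to 4. With TMM factors, all Bach2KO libraries were below all Bach2WT libraries. By library totals the genotypes overlapped, with 553 of 166529247 counts in Bach2KO 4 and 222 of 84052687 in Bach2WT 4. The log2 fold change with TMM factors was −0.69 (SE 0.25; edgeR adjusted p = 0.605). Rpe, an epimerase of the later part of the pathway, did not overlap with TMM factors either, in the other direction, with 0.695 ± 0.165 CPM in Bach2KO and 0.446 ± 0.0498 CPM in Bach2WT mice (SD, n = 4 each), a difference of 0.64 on the log2 scale (SE 0.37; edgeR adjusted p = 0.760). For Pgd the difference was −0.41 on the log2 scale (SE 0.19; edgeR adjusted p = 0.663). The 6 tested genes of gluconeogenesis, the reverse route to glucose, had a median of 0.037, and 0 passed the unadjusted threshold.

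Many glycolytic genes are targets of hypoxia-inducible factors, whose binding element holds the letters ACGTG. Promoters of the 10 enzymes were taken from RefSeq (GRCm38.p6), from 250 bases before to 50 after each of 17 annotated starts. ACGTG on either strand occurred at 8 of the 17 starts, in 7 of the 10 genes, beside 19.6% of all 32851 promoters and 21.8% of all 27025 genes. Starts of a gene can overlap, and 2 of the Aldoa starts share the same match. The number of starts per gene was not matched between the enzymes and all genes. CACGTG, the E-box, which contains ACGTG on both strands, occurred in 1 enzyme (Ldha) and in 8.09% of all genes. TGACTCA, the TPA response element, occurred in 1 (Aldoa) and 5.95%, and GGGCGG, the GC box, in 8 and 38.2%. The 250 bases before a start are shown for 3 enzymes with ACGTG, which is in capitals on either strand. Ldha had the most matches, and they overlap within its 2 E-boxes, at chr7:46845554-46845803 (plus strand).
Ldha: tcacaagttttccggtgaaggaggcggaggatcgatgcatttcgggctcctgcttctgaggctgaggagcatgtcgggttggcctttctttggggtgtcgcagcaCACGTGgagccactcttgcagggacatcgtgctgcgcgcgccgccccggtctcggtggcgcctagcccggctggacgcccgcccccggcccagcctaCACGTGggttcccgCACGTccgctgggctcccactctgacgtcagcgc
Pgk1 held 2 matches at chrX:106186850-106187099 (plus strand), and Aldoa 1 match at chr7:126799179-126799428 (minus strand).
Pgk1: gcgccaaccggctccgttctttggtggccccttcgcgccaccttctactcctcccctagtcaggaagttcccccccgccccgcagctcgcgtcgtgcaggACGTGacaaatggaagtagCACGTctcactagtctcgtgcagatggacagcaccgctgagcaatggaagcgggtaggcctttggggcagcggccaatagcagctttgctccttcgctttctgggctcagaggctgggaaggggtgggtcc
Aldoa: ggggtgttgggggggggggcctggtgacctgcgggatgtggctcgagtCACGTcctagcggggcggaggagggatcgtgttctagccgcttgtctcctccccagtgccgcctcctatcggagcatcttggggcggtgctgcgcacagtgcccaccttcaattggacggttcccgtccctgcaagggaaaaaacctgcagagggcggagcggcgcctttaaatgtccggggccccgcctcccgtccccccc
Against these letters, Ldha, Pgk1 and Aldoa had log2 fold changes of −0.096, −0.11 and −0.24, given above with their errors, and a match of letters is not a binding site. Of 10 tested other hypoxia-inducible genes, 7 had higher fitted values in Bach2KO mice (median log2 fold change 0.40), and 2 passed the unadjusted threshold in edgeR. Ddit4, an inhibitor of growth signalling that also responds to other stress, had 8.80, 3.73, 14.3 and 5.70 CPM in Bach2KO 1 to 4 and 2.39, 3.10, 3.24 and 0.965 CPM in Bach2WT 1 to 4. The genotypes did not overlap. Its log2 fold change was 1.73 (SE 0.41; edgeR adjusted p = 0.352), and it was the 1 gene of the list with an adjusted p-value under 0.05 in DESeq2. Bnip3, a mitophagy receptor, differed by 1.29 on the log2 scale (SE 0.56; edgeR adjusted p = 0.662).

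Genes in common use as references varied as well. Of 13, 4 had higher and 9 lower fitted values (median log2 fold change −0.083), and Actb and B2m passed the unadjusted threshold. Actb, cytoplasmic actin, had 32.4, 43.3, 41.8 and 38.1 CPM against 30.6, 36.3, 24.8 and 26.2 CPM, a difference of 0.40 on the log2 scale (SE 0.17; edgeR adjusted p = 0.641). B2m, the light chain of MHC class I, had 22.8 to 34.6 CPM against 8.78 to 20.3 CPM without overlap, a difference of 1.11 on the log2 scale (SE 0.25; edgeR adjusted p = 0.352, DESeq2 adjusted p = 0.0126), and was the 1 reference gene past the adjusted threshold in DESeq2. Tfrc, the transferrin receptor, did not overlap on the lower side (log2 fold change −0.31, SE 0.25; edgeR adjusted p = 0.840). Among markers of other cells, summed levels were 11.6 to 18.6 CPM in the Bach2KO and 6.87 to 14.0 CPM in the Bach2WT libraries for 7 macrophage genes, 0.664 to 2.62 and 0.187 to 1.74 CPM for 7 T cell genes, 14.2 to 28.6 and 10.0 to 16.8 CPM for 5 endothelial genes, 2.06 to 5.58 and 0.893 to 11.1 CPM for 6 adipocyte genes, 31.6 to 60.1 and 28.4 to 67.7 CPM for 6 stellate cell and fibroblast genes, and 85.4 to 134.6 and 109.2 to 154.1 CPM for 7 duct cell genes. For B and plasma cells they were 4.97 to 16.3 and 3.66 to 9.93 CPM, for red blood cells 55.0 to 209.3 and 31.9 to 259.3 CPM, and for eosinophils and skeletal muscle under 0.5 CPM in every library. The median log2 fold changes were 0.44 for the macrophage, 0.91 for the T cell, 0.49 for the endothelial and −2.0 for the adipocyte genes tested. The genotypes did not overlap for Cdh5, a cadherin of endothelial cells (log2 fold change 1.07, SE 0.33; edgeR adjusted p = 0.531), for Plin1, a coat protein of fat droplets (0.0216 against 0.608 CPM on average, lower in Bach2KO mice; edgeR adjusted p = 0.367), and for Krt7, a keratin of duct cells (higher). Of these lists, 0 genes passed the adjusted threshold in edgeR, and their part in the levels of the enzymes was not tested.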

How the data were processed

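Pancreatic mRNA of 8 mice was sequenced as paired-end reads, and the submitters' processing notes name fastp, HISAT2 2.2.1, featureCounts 2.0.6 and the build mm39. The gene annotation release, strandedness and the treatment of reads with several matches are not given in the sources used here. The authors deposited counts per gene without normalization and FPKM values, which are the counts divided by 1 size factor per library and by gene length. Their normalized signal, log2 fold changes and p-values stand in the same deposited table and were not used. Even numbers made up 58.9 to 61.9% of the non-zero counts of a library.

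The members and lists were chosen with earlier results of these data known. Genotypes were compared with edgeR 4.0.16 (R 4.3.3; TMM, filterByExpr, quasi-likelihood test, no covariate, all 8 libraries, Benjamini-Hochberg adjustment over 12820 genes, threshold 0.05), with DESeq2 1.42.0 and limma 3.58.1 as alternatives. Standard errors are the log2 fold change divided by the square root of F, and log2 CPM used a prior count of 2. Two-sided exact permutation tests were used for isozyme shares. Some pathway genes, and the isozyme shares that need them, are not reported here. Named genes were all members, other pathway and reference genes with an unadjusted p under 0.05, isozymes of a step, and the 5 genes most like the members, and Gpi1, Slc2a1, Slc2a2, Rpe, Tfrc, Cpa1, Cela2a, Prss2, Cdh5, Plin1 and Krt7 were named after their values were seen. Windows of 150 bases were searched in GENCODE M21 (GRCm38), gene coordinates are those of the deposited table, and promoters are RefSeq's. The edgeR fit was also run on simulated counts with a smaller spread and larger changes than these data, so that run does not measure its power here. P-values measure the spread between these mice.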

Additional observations from a re-analysis of the deposited data

Results flagged for a closer look

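In groups of 4 libraries, 8 of 68 sets of values held 1 library set apart from the other 3 by Dixon's 95% criterion. For independent normal values this criterion sets apart about 1 in 20. The sets here share libraries and scaling, so their number cannot be compared with that rate. Bach2KO 1 accounted for 4 of the 8. It was low for Eno1 (11.5 CPM, the others 18.1 to 19.0), Ldha (14.0 CPM, the others 21.9 to 22.3) and Pfkm (1.66 CPM, the others 3.42 to 3.67), and high for Pdk4 (9.34 CPM, the others 0.0264 to 0.145). Bach2KO 2 was high for Hk1 (2.22 CPM, the others 1.72 to 1.78) and low for the share of Pgam1 in its step (97.1%, the others 98.2 to 98.4%). That share rests on few counts of Pgam2, with 6, 5, 3 and 9 in Bach2KO 1 to 4. Bach2KO 3 was high for Aldoc (1.93 CPM, the others 0.556 to 0.636). Among Bach2WT libraries, Bach2WT 4 was the only one with counts on Pdk4 (0.230 CPM).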

How the results depend on the processing

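The count of enzymes past the threshold was 0 under every alternative run, for genotype, sex and their interaction. Of 190 recomputed single values, 178 kept their direction and 12 changed it. With library totals in place of TMM, added after seeing the data, the enzymes' median was 0.14 and 6 enzymes changed sign: Aldoa 0.073, Pgk1 0.22, Pgam1 0.18, Eno1 0.10, Pkm 0.090 and Ldha 0.23. The gene length correction moved the median of all genes to −0.065 and of the enzymes to −0.28, and Pfkl to −0.083. Genes past the threshold numbered 55 higher and 18 lower without the filter on low counts (where 1 other glycolysis gene, Pdk4, was called), 57 and 23 with DESeq2, and 0 and 0 with at least 10 counts in every library (which leaves out Gapdh), limma on log2(FPKM + 1), sex as a covariate and the replicate block. Replicate numbers do not come with a shared litter or day, and deviations of same-numbered libraries correlated at 0.21, −0.03, −0.04 and −0.05. The replicate block left the enzymes' median at −0.16 and, like sex as a covariate and the length correction, gave Tpi1 alone an unadjusted p under 0.05, as did leaving out Bach2KO 3, while leaving out Bach2WT 1 gave Aldoa and Tpi1 one.

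Leaving out each library in turn gave 0 to 0 genes higher and medians of the enzymes of −0.29 to −0.05. Single log2 fold changes ranged from 0.071 to 0.37 for Hk1, −0.10 to 0.26 for Pfkl, −0.33 to −0.16 for Aldoa, −0.47 to −0.26 for Tpi1, −1.32 to −0.36 for Gapdh, −0.22 to 0.081 for Pgk1, −0.34 to −0.011 for Pgam1, −0.27 to −0.044 for Eno1, −0.32 to −0.12 for Pkm and −0.25 to 0.082 for Ldha. Differences in isozyme share ranged from −1.17 to 3.05 percentage points for Pfkl, −1.19 to 1.09 for Pgam1, −4.48 to 1.26 for Eno1, −0.44 to 1.00 for Pkm and −4.35 to 0.54 for Ldha. Without Bach2WT 1, the shares of Pgam1 did not overlap between the genotypes (−1.19 points, exact permutation p = 0.0286 before adjustment). This share rests on 0 to 10 counts of Pgam2 per library. With summed counts in place of FPKM, the share of Pfkl differed by −1.45 points. The causes were not tested.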
